A study of Mus musculus with 18 samples.

Results

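The spleens of mice given alginate oligosaccharide (AOS) alone were compared with those of controls without AOS, neither group having received a diabetes-inducing drug. The libraries were chosen by the treatment in their labels, 3 of A10 (AOS at 10 mg/kg) and 3 of Con (control), which is 6 of the 18 libraries of the series. Of 19320 genes with a unique name, 12488 reached an RPKM (reads per kilobase of transcript relative to all mapped reads) of 1 in at least 3 of the 6 libraries and were tested.

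The animals of all groups were ICR mice, an outbred strain, and the labels give an age of 10 weeks for each spleen. AOS is a short sugar chain made from the alginate of brown seaweed, and the series asks how it acts on the spleen in type 1 diabetes. In the other groups, streptozotocin (STZ), a toxin of the insulin-making cells, was given alone, with AOS at 10 mg/kg (STZ-A10), or with a transplant of fecal microbiota from AOS-fed or control donors (A10-FMT and Con-FMT). For Con, the methods describe male mice on a regular diet with saline. They also describe weanling males given AOS at 10 mg/kg by gavage, whose gut contents were collected as microbiota. The times stated for those males put their collection before the age of 10 weeks that the labels give. The methods do not say which mice the A10 spleens came from. Nothing in the labels says how long AOS was given or when after the last dose the spleen was taken.

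The spleen filters blood in its red pulp, where macrophages take up worn red cells and recycle their iron, and mounts antibody and T cell responses in its white pulp. B cells that meet antigen pass through germinal centres, and some become plasma cells, which fill their endoplasmic reticulum with chaperones to fold the antibody they secrete. In mice the red pulp also makes red cells, platelets and neutrophils. Interferons switch on antiviral genes and the machinery that shows peptides on MHC class I. All of these cells were measured together, so that fewer cells of a type and less RNA per cell cannot be told apart.

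Transcripts that define the tissue were present. Spic, a regulator of red pulp macrophages, stood at 36.47 to 57.07 RPKM, and Cd4, of helper T cells, at 25.34 to 55.94. The A10 libraries were more alike (Pearson's r of 0.986 to 0.987 across genes) than the Con libraries (0.948 to 0.978). Globin genes took 21.5% to 34.4% of the summed RPKM in Con and 17.2% to 25.7% in A10. Y-linked genes were at the same level in all 6 libraries, Eif2s3y for example at 67.07 to 79.77. Transcripts of other organs were present in uneven amounts and are given at the end. The p-values come from a fit of all 18 libraries of the series and take their spread from the libraries within each group. Nothing in the labels says that libraries sharing a group came from different mice, so this is a spread between libraries.

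With AOS alone, 1 gene of 12488 (0.00801%) passed the threshold of 0.05 after Benjamini-Hochberg adjustment in limma, and it was a kidney transcript. Without adjustment, p was under 0.05 in 446 genes higher in A10 (3.57%) and in 188 lower (1.51%), together 634, where 5% of the genes tested is 624. All 3 A10 libraries lay above all 3 Con libraries in 1480 genes (11.9%) and below them in 607 (4.86%). The genes higher in A10 included the transcripts of plasma cells and their endoplasmic reticulum, of germinal centre B cells, of regulatory and activated T cells, and of the interferon response. Those lower in A10 included genes of neutrophil precursors, platelets and red cell precursors, for which the Con libraries themselves were far apart. None of these other genes passed the adjusted threshold. Counts of genes with p under 0.05 are unadjusted, and a p given for a single gene is adjusted over all genes tested.

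**Figure D1:**
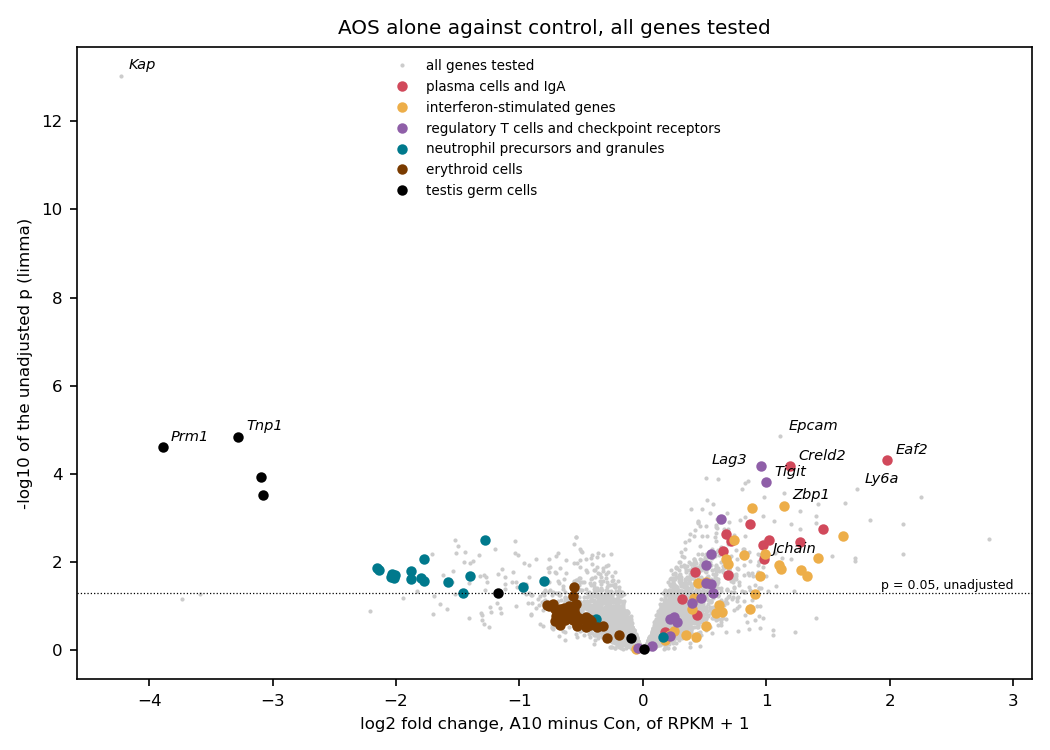
Each point is a gene tested, by its log2 fold change (A10 minus Con, of RPKM + 1, horizontal axis) and the negative log10 of its unadjusted p in limma (vertical axis), with 6 gene lists in colour. Kap stands apart at the upper left, plasma cell and most interferon genes lie to the right of 0 and neutrophil precursor and testis genes mostly to the left.

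Kap, the kidney androgen-regulated protein gene (GRCm38, chr6:133849851-133853762, minus strand), stood at 13.33, 20.06 and 20.97 RPKM in Con and was listed at 0 in all 3 A10 libraries (limma, adjusted p = 1.16e-09). No fold can be given against a group listed at 0. Kap entered the test only through the Con libraries, so it had to differ between the groups, and its p is no independent support. The same split ran through the whole series. In STZ, Kap was at 23.68, 25.95 and 20.91, and in the 12 libraries outside Con and STZ it was between 0 and 0.6. A search made after seeing these values found 8 genes in which all 6 Con and STZ libraries lay above all 12 others, and 0 with the reverse. Apart from Kap these were Slc22a6, Mep1a, Akr1c21, Ugt2b38, Cltrn, Acsm2 and Miox, several of them known from the kidney's proximal tubule. Slc22a6, its organic anion transporter, was at 0.08, 0.09 and 0.09 in Con and listed at 0 in all A10 libraries. Miox, which breaks down inositol, was at 0.29, 0.15 and 0.15 in Con and at 0 in A10. The other 7 genes were at 0.57 RPKM or less in Con and STZ, which is few reads. The labels give no preparation batch, and the cause of the split was not tested. Among the 6 libraries it divides A10 from Con, so the source of the kidney transcripts and AOS cannot be told apart.

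Sperm protamine and transition protein genes, which package the DNA of sperm heads, made up the next 4 lower genes. Prm1 was at 11.27, 85.59 and 6.56 RPKM in Con and at 0.57, 0.57 and 0 in A10. Tnp1 was at 5.44, 39.49 and 3.47 in Con and at 0, 0 and 0.26 in A10 (adjusted p = 0.059). Prm2 and Tnp2 followed them, with adjusted p of 0.152 and 0.219. Con 2 was the highest in all 4, the groups did not overlap, and the genes entered the test only through the Con libraries. Of 24 testis germ cell genes, 7 were tested, and the summed RPKM of the 24 was 26.7 to 373 in Con and 7.57 to 9.79 in A10.

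The gene nearest to the threshold among those higher in A10 was Epcam, the epithelial adhesion molecule (chr17:87635979-87651129). It was at 1.85, 2.82 and 1.92 RPKM in Con and at 6.04, 4.69 and 6.91 in A10, a 2.15-fold difference on the scale of RPKM + 1 (log2 0.73 to 1.48 at 95% confidence, adjusted p = 0.059). The lowest A10 value exceeded the highest Con value. It passed the threshold after quantile normalization (adjusted p = 0.00168) and after median centring (adjusted p = 0.00859). In the groups given STZ its mean was 1.52 to 2.39. Pon3, a paraoxonase, was at 10.58, 15.08 and 10.41 in Con and at 22.63, 20.38 and 22.78 in A10 (adjusted p = 0.152). Cpxm1, a carboxypeptidase family member, was at 5.34, 7.63 and 4.95 against 13.23, 11.78 and 12.64 (adjusted p = 0.221). Gm15056 was at 2.09, 0.81 and 0 against 8.62, 3.88 and 11.76 (adjusted p = 0.221), the most variable of these. Among the controls it reached an RPKM of 1 in Con 1 alone, so it was tested because of its A10 values.

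Of the 12 genes named for the lowest p among those higher in A10, 10 had every A10 library above all 15 other libraries of the series, Ly6a and Cpxm1 being the exceptions. Among all genes tested 213 had this pattern (1.71%). The naming rule required every A10 library to lie above every Con library, and the p drew on the spread in all 18 libraries. Part of the pattern was thus fixed by the choice of the 12. Their share is a description, and the share over all genes is no like background.

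Plasma cell genes were higher in A10 throughout. Of the 21 genes of the list, 17 were in the table and 16 were tested, and the immunoglobulin constant region genes were not among them. All 16 had a higher mean log2 level in A10, where 63.2% of all genes did. In 13 of the 16, p was under 0.05 (3.57% of all genes were so and higher), and in 14 the groups did not overlap (11.9% of all genes). The median log2 fold change was 0.79, against 0.048 over all genes. The summed RPKM of the list was 865, 1450 and 847 in Con and 2070, 1660 and 1990 in A10.

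Jchain, which links IgM and IgA into polymers, was at 356, 758.71 and 351.59 RPKM in Con and at 965.73, 838.03 and 903.07 in A10 (902 ± 63.9 against 489 ± 234, SD, n = 3 each; limma, adjusted p = 0.664). Con 2 came close to the A10 range, and the other Con libraries were far below it. Eaf2, an elongation factor partner prominent in plasma cells, was at 8.85, 14.53 and 5.14 in Con and at 43.84, 24.94 and 48.56 in A10, 3.94-fold higher on the scale of RPKM + 1 (log2 1.23 to 2.73, adjusted p = 0.12). Creld2, a chaperone of the endoplasmic reticulum, was at 25.46, 42.31 and 27.11 against 77.01, 54.33 and 87.62 (2.28-fold, log2 0.72 to 1.66, adjusted p = 0.12). In all 3 genes A10 2 was the lowest of the A10 libraries and Con 2 the highest of the Con libraries.

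The regulators of the plasma cell state pointed the same way. Prdm1, which encodes the repressor Blimp-1 that ends the B cell program, was at 1.51, 2.48 and 1.91 in Con and at 4.37, 2.91 and 4.33 in A10 (adjusted p = 0.482). Xbp1, the factor that expands the secretory apparatus, was at 50.07, 62.12 and 53.59 against 95.92, 71.54 and 95.69 (adjusted p = 0.66). Irf4, needed for the transition, overlapped between the groups at 15.13, 18.88 and 25.96 against 28.37, 22.16 and 31.01 (adjusted p = 0.988). The surface markers Sdc1 (CD138) and Tnfrsf17 (the survival receptor BCMA) did not overlap, with log2 fold changes of 0.87 and 0.97. The secretory pathway genes Derl3, Fkbp11, Mzb1, Edem1 and Sec11c were at log2 fold changes of 1.46, 1.27, 1.02, 0.67 and 0.42. Ell2, which favours the secreted form of antibody transcripts, differed least, by 0.18 on the log2 scale (adjusted p = 0.988).

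**Figure D2:**
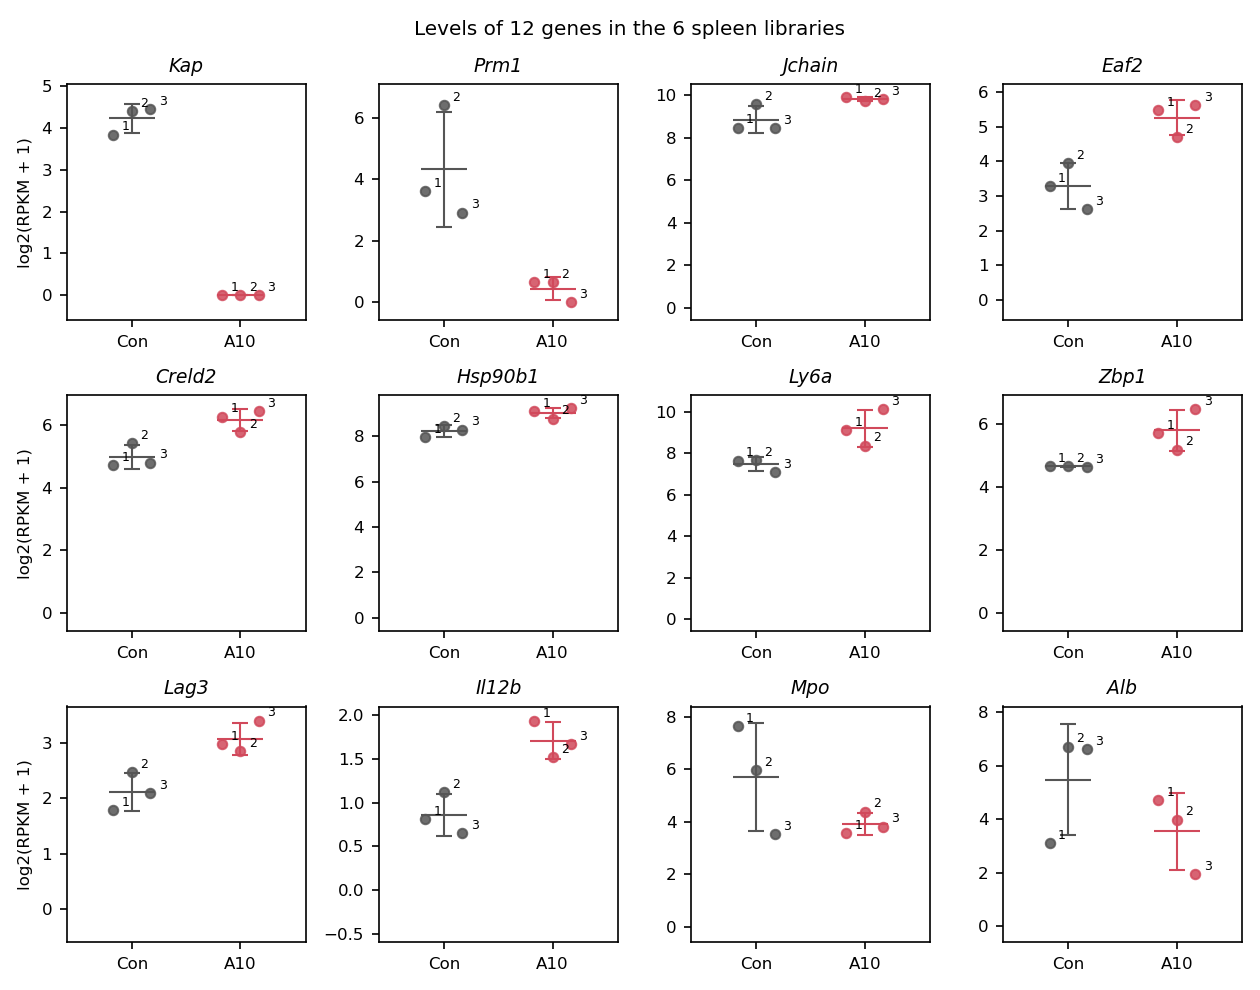
The level of 12 genes in each Con and A10 library, as log2(RPKM + 1) on the vertical axis; points are libraries with their replicate number, the horizontal bar is the mean and the whiskers are the SD (n = 3). Eaf2, Creld2 and Hsp90b1 do not overlap between groups, Kap is at 0 in every A10 library, and Mpo and Alb span a wide range in Con.

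Several chaperones of the endoplasmic reticulum, where antibody is folded, had higher values in A10. Of 26 heat shock and chaperone genes, 6 had p under 0.05 and all were higher in A10 (3.57% of all genes). These were Hsp90b1, Sdf2l1, Manf, Pdia4, Dnajb9 and Hyou1, which all encode proteins of the endoplasmic reticulum. Hsp90b1 (GRP94) was at 249.57, 349.74 and 314.32 RPKM in Con and at 548.73, 440.29 and 602.52 in A10 (1.74-fold, adjusted p = 0.183). Dnajb11 and Hspa13, 2 more proteins of that compartment, were among the 12 named genes. Dnajb11 was at 49.82, 54.55 and 51.7 against 77.58, 63.77 and 84.18 (adjusted p = 0.152), and Hspa13 was at 8.09, 9.21 and 8.98 against 12.62, 12.43 and 14.04 (adjusted p = 0.243). Hspa5 (BiP), the most general of them, was at 194.91, 268.62 and 257.05 against 288.2, 269.17 and 320.25 (adjusted p = 0.98). The cytosolic Hspa1b, induced by heat and stress, was at 15.42, 51.26 and 140.52 in Con and at 14.62, 17.05 and 28.73 in A10 (adjusted p = 0.988). It was highest in Con 3, and the groups overlapped. The median over all 26 was a log2 fold change of -0.05.

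Because plasma cell and chaperone genes lay together, the bases before their start sites were searched on either strand for the endoplasmic reticulum stress element, CCAAT and CCACG with 9 free bases between them. It is the site at which the stress sensor ATF6 acts with NF-Y. Of 9820 tested genes with a RefSeq promoter, 16 held it in the 250 bases before a start (0.163%). It was found in 2 of the 14 plasma cell genes with a promoter, Creld2 and Derl3. It was also found in 2 of 6 genes from a group of endoplasmic reticulum chaperones that was put together with the values known, Hsp90b1 and Hspa5. The 4 stretches are shown because they are the matches in these groups, with the element in capitals and each read 5′ to 3′ along its gene (RefSeq, GRCm38.p6). Creld2 is on chr15:88819480-88819578 (plus strand), Derl3 on chr10:75893202-75893300 (plus), Hsp90b1 on chr10:86705598-86705694 (minus) and Hspa5 on chr2:34771985-34772083 (plus).
Creld2: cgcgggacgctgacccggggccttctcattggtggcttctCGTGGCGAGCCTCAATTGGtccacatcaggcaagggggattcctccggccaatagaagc
Derl3: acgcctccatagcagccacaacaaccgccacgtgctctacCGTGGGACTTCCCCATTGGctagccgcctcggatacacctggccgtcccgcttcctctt
Hsp90b1: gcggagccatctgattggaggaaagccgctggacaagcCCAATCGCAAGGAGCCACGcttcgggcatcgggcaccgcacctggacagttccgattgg
Hspa5: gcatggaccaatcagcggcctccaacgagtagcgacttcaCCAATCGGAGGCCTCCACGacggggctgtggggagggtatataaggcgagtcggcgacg
In Creld2 and Derl3 the element lay on the opposite strand, ending 107 and 137 bases before the start. In Hsp90b1 and Hspa5 it lay on the gene's strand, 193 and 46 bases before it. A match is a description of these letters and not of binding.

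General B cell genes had a small median difference. Of 24 B cell genes, 23 had a higher mean log2 level in A10 (63.2% of all genes), but 0 had p under 0.05 in limma and 0 passed the adjusted threshold. The median was 0.17, and became -0.01 without Con 1 and 0.36 without Con 3. The groups did not overlap in 2, Pou2af1 and Cd72 (11.9% of all genes). Pou2af1, the coactivator OBF-1 that plasma cells also use, was at 94.93, 140.88 and 122.7 RPKM in Con and at 188.97, 154.13 and 200.47 in A10 (adjusted p = 0.988).

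Germinal centre genes were higher in A10, all 13 in mean log2 level (63.2% of all genes), with a median of 0.59. In 7, p was under 0.05 (3.57% of all genes were so and higher) and in 8 the groups did not overlap (11.9%). Il21, the cytokine with which follicular helper T cells drive the reaction, was at 0.51, 0.8 and 0.21 RPKM in Con and at 1.01, 1.43 and 1.28 in A10 (adjusted p = 0.442), all low levels. Il21 is among the 7 and the 8, and it entered the test only through the A10 libraries, so its groups had to differ. Where an RPKM of at least 1 was required in all 6 libraries, 12 genes of the list were tested and 6 had p under 0.05. S1pr2, which holds B cells in the germinal centre, was at 7.24, 9.08 and 4.34 against 12.14, 10.2 and 12.82 (adjusted p = 0.811). Bcl6, the regulator of the germinal centre state, overlapped at 13.87, 16.86 and 17.6 against 18, 17.49 and 19.45 (adjusted p = 0.988). Con 3 was the lowest library for Il21 and S1pr2. Without it 2 of the 13 had p under 0.05, and without Con 1, A10 1 or A10 3 it was 4, 3 and 3.

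Among T cell genes, activation and checkpoint receptors had the lowest p. Of 29 general T cell genes, 28 had a higher mean log2 level in A10 (63.2% of all genes), with a median of 0.31. In 2, p was under 0.05 (3.57% of all genes were so and higher). Those were the costimulators Icos and Cd28. Without Con 1 the median of the 29 was 0.06. Icos was at 5.69, 7.28 and 6.17 RPKM in Con and at 10.18, 9.54 and 9.58 in A10 (adjusted p = 0.66). Of 16 genes of regulatory T cells and checkpoint receptors, 7 had p under 0.05 (3.57% of all genes) and 10 did not overlap (11.9%), all higher in A10, with a median of 0.49. Icos belongs to both lists and is among the 7 and the 10. Lag3 was at 2.47, 4.57 and 3.26 against 6.92, 6.22 and 9.59 (1.94-fold, log2 0.58 to 1.34, adjusted p = 0.12). Tigit was at 2.48, 3.79 and 1.32 against 6.3, 5.12 and 5.92 (2-fold, log2 0.57 to 1.43, adjusted p = 0.152). Both encode receptors that restrain T cells, and in both the lowest A10 library was above the highest Con library. Pdcd1 (PD-1) was at 1.8, 2.69 and 1.72 against 3.85, 3.71 and 3.56 (adjusted p = 0.352). Foxp3, which defines regulatory T cells, was at 1.89, 4.07 and 2.88 against 4.73, 4.59 and 4.13 (adjusted p = 0.865), with Con 2 just under the lowest A10 library. Without Con 1, 4 of the 16 had p under 0.05.

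Other signals between immune cells gave a mixed picture. Of 20 cytokine genes tested, 4 had p under 0.05, all higher in A10 (3.57% of all genes): Il12b, Il33, Il21 and Il18. Il21 was tested only through its A10 values. Il12b reached an RPKM of 1 in Con 2 alone among the controls, so it too was tested because of its A10 values. Il12b, a subunit of the interleukins 12 and 23, was at 0.75, 1.17 and 0.57 in Con and at 2.82, 1.87 and 2.19 in A10 (adjusted p = 0.152). Il33, made by stromal cells, was at 5.42, 10.69 and 7.52 against 13.07, 13.66 and 16.41 (adjusted p = 0.345), without overlap. Among 26 genes of NK and cytotoxic cells, 4 (2 without Con 1 or without A10 1) had p under 0.05, all higher (3.57% of all genes). They were led by Gzmk, a granzyme, and Tbx21, the regulator T-bet. Gzmk overlapped, with Con 3 and A10 3 both at 2.72. Of 20 dendritic cell genes, Fscn1 and Bst2 had p under 0.05, both higher in A10 (3.57% of all genes). Bst2 is counted again among the interferon-stimulated genes. Fscn1, an actin bundler of mature dendritic cells, was at 14.35, 20.58 and 16.09 against 32.24, 28.95 and 32.91 (adjusted p = 0.66).

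Interferon-stimulated genes were higher in A10 on average, with A10 3 far above the rest. Of 30 tested, 29 had a higher mean log2 level in A10 (63.2% of all genes), with a median of 0.68. In 16, p was under 0.05 (3.57% of all genes were so and higher), but the groups did not overlap in 7 of the 30 (11.9% of all genes). The summed RPKM of the list was 1140, 999 and 909 in Con and 1590, 1090 and 3290 in A10. Without A10 3, 5 of the 30 had p under 0.05 and the median was 0.34. Without A10 2, 22 did and the median was 0.95.

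Zbp1, a sensor of nucleic acids, was at 24.48, 24.32 and 23.91 RPKM in Con and at 51.69, 35.29 and 88.41 in A10 (2.2-fold, log2 0.58 to 1.69, adjusted p = 0.271). The groups did not overlap, and A10 3 was the highest library. Ifit3 reached 88.82 in A10 3, while A10 2 at 14.37 lay under Con 1 at 14.98. Isg15, a ubiquitin-like effector, overlapped at 129.06, 91.94 and 59.19 against 117.41, 61.86 and 237.34 (adjusted p = 0.988). Ly6a (Sca-1), an interferon-responsive surface protein of lymphocytes, was at 200.46, 204.7 and 137.4 against 554.54, 332.36 and 1124.28 (3.31-fold, log2 0.96 to 2.49, adjusted p = 0.183).

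The interferon-stimulated response element, searched on either strand as GAAA, 2 free bases and GAAA, is the site through which interferons switch on many of these genes. It was found before a start in 13 of the 23 interferon genes with a promoter, against 346 of 9820 tested genes (3.52%). The list was made of genes that respond to interferon, so this share describes the list and not A10 against Con. Here too a match describes letters and not binding. The 3 holders with the lowest p were Ifit3, Bst2 and Irgm1, shown so that the element can be seen in place (RefSeq, GRCm38.p6). Capitals mark the first match in each stretch, and a further match follows it, wholly or partly in lower case. The stretches are at chr19:34583333-34583422 (plus strand), chr8:71537553-71537642 (minus) and chr11:48871421-48871490 (minus).
Ifit3: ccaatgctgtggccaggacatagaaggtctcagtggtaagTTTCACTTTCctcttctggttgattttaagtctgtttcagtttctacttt
Bst2: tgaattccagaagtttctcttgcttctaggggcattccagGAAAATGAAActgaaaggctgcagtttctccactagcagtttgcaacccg
Irgm1: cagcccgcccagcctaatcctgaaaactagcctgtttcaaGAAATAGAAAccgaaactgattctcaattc
Bst2 (tetherin) stood at 71.62, 84.18 and 64.78 in Con and at 127.81, 101.29 and 241.38 in A10, and Irgm1, a guanosine triphosphatase of cell-autonomous defence, at 39.2, 43.15 and 44.16 against 61.4, 47.75 and 104.11. Isg15 and Rsad2 hold the element as well, with log2 fold changes of 0.43 and -0.06.

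Genes of MHC class I presentation had higher values in A10. All 17 had a higher mean log2 level in A10 (63.2% of all genes), with a median of 0.44. In 7, p was under 0.05 (3.57% of all genes were so and higher), which became 4 without Con 1 and 3 without A10 3. In 12 the groups did not overlap (11.9%). Nlrc5, the transactivator of these genes, was at 8.3, 12.25 and 10.09 in Con and at 19.43, 15.88 and 21.39 in A10 (adjusted p = 0.455). Psmb9, a subunit of the immunoproteasome, was at 98.5, 115.62 and 97.2 against 175.56, 156.7 and 176.2 (adjusted p = 0.718), and the A10 libraries lay close together. For the 13 MHC class II genes the median was 0.19 and 0 had p under 0.05 or passed the adjusted threshold.

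**Figure D3:**
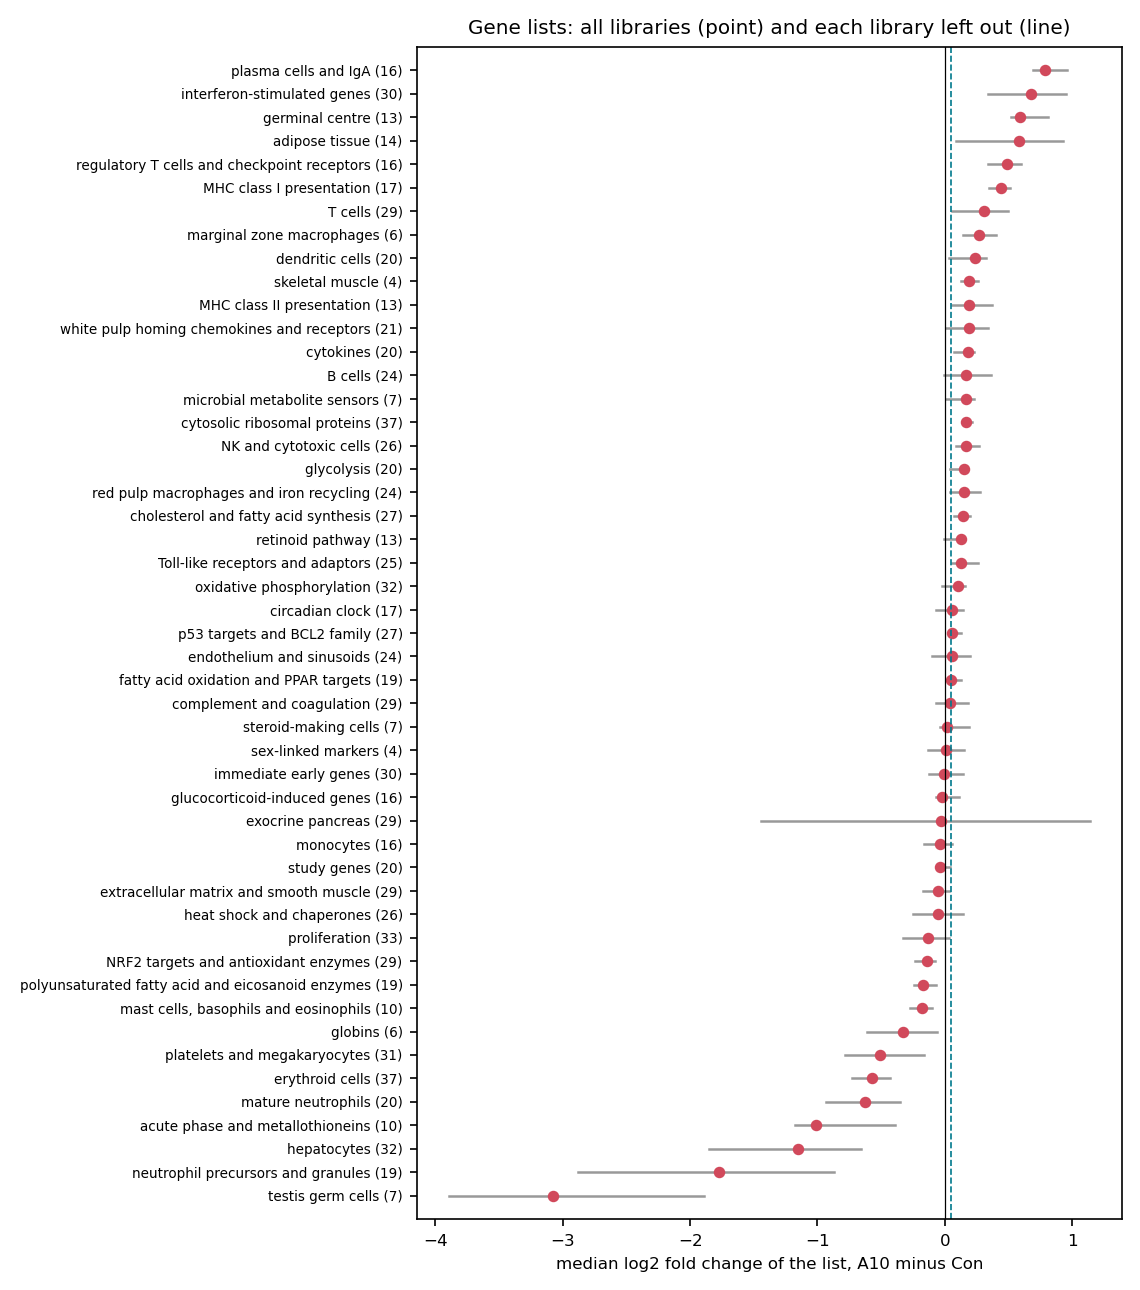
Median log2 fold change (A10 minus Con) of each gene list with at least 4 genes tested (number in brackets); the point uses all libraries, the line spans the medians with each of the 6 libraries left out in turn, and the dashed line is the median of all genes (0.048). Plasma cell genes keep a median of 0.69 to 0.96, while neutrophil precursors span -2.88 to -0.87.

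Neutrophil genes were lower in A10, and the difference came with a wide spread in Con. Of 19 genes of neutrophil precursors and granules, 18 had a lower mean log2 level (36.8% of all genes), with a median of -1.77. In 17, p was under 0.05 (1.51% of all genes were so and lower). In 1 of the 19 the groups did not overlap (4.86% of all genes were so and lower). Mpo, the myeloperoxidase of the primary granules, was at 198.01, 62.32 and 10.64 RPKM in Con and at 10.84, 19.97 and 13.06 in A10 (adjusted p = 0.811). Lcn2, a later granule protein, was at 952.09, 259.18 and 42.08 against 30.33, 82.35 and 45.91 (adjusted p = 0.718). For both genes Con 1 was far above the rest and Con 3 was within or below the A10 range. Without Con 1, the median was -0.87 and 1 gene had p under 0.05, and without Con 2, A10 1 or A10 3 it was 9, 5 and 10 genes. Without Con 3, the median was -2.88 and 8 of the 19 passed the adjusted threshold.

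Con 1 was the highest library for the named genes of mature neutrophils too. S100a8, an abundant calcium-binding protein, was at 5153.63, 1315.32 and 275.61 in Con and at 177.34, 454.58 and 257.98 in A10 (adjusted p = 0.718). Of 20 genes, 9 had p under 0.05 (1.51% of all genes) and 5 did not overlap (4.86%), all lower in A10. The 9 became 1 without Con 1 and 4 without A10 1. Csf3r, the receptor for the neutrophil growth factor G-CSF, was at 44.24, 20.04 and 16.46 against 9.8, 10.84 and 14.79 (adjusted p = 0.66). Cxcr2, the chemokine receptor of circulating neutrophils, was at 19.39, 8.65 and 7.01 against 4.51, 5.1 and 6.68 (adjusted p = 0.664). For these receptors even Con 3 was above every A10 library. Trem3 and Mrgpra2b, which were also among the named lower genes, were highest in Con 1 at 21.54 and 19.02 and were at 1.31 to 2.48 in A10. Alox5 and Lta4h, the enzymes of leukotriene synthesis, had log2 fold changes of -0.73 and -0.40.

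Platelet and megakaryocyte genes were lower in 30 of 31 (36.8% of all genes), with a median of -0.51. In 6, p was under 0.05 (1.51% of all genes were so and lower) and in 7 the groups did not overlap (4.86%). Cavin2, a caveolar coat protein of platelets, was at 35.11, 24.83 and 32.02 RPKM in Con and at 19.27, 24.36 and 19.87 in A10 (adjusted p = 0.684). Rgs18, a brake on platelet receptors, was at 43, 23.02 and 19.6 against 14.48, 18.35 and 13.56 (adjusted p = 0.718). Without Con 1 the median was -0.16 and 1 gene had p under 0.05, and without Con 3 the values were -0.78 and 20. Without A10 1 or A10 3, 3 and 2 genes had p under 0.05.

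Erythroid genes were lower in A10 in all 37 (36.8% of all genes), with a median of -0.57. The groups did not overlap in 23 (4.86% of all genes were so and lower), but 1 had p under 0.05 (1.51%) in the fit that takes its spread from all 18 libraries. In a fit of the 6 libraries alone, 26 of the 37 had p under 0.05, where 384 of 12488 genes were so and lower, and 0 of the 37 passed the adjusted threshold. Gfi1b, a repressor needed for red cell and platelet precursors, was at 47.96, 36.7 and 32.47 in Con and at 26.72, 29.23 and 22.18 in A10 (adjusted p = 0.932). Gata1, their master regulator, was at 114, 77.13 and 49.96 against 55.13, 60.09 and 42.06 (adjusted p = 0.988). Con 1 was the highest library for both and A10 3 the lowest. Of the globins, Hba-a1 was at 172790.86, 125310.95 and 90421.79 against 104664.26, 115413.11 and 71652.25 (adjusted p = 0.988). Hbb-bs, a beta globin gene, varied widely within both groups, at 1913.87, 16794.91 and 21591.95 against 545.91, 63.37 and 8414.06 (adjusted p = 0.988). RPKM is relative to the whole library. With globins removed and the libraries rescaled, the plasma cell list had 13 genes with p under 0.05 and a median of 0.76.

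**Figure D4:**
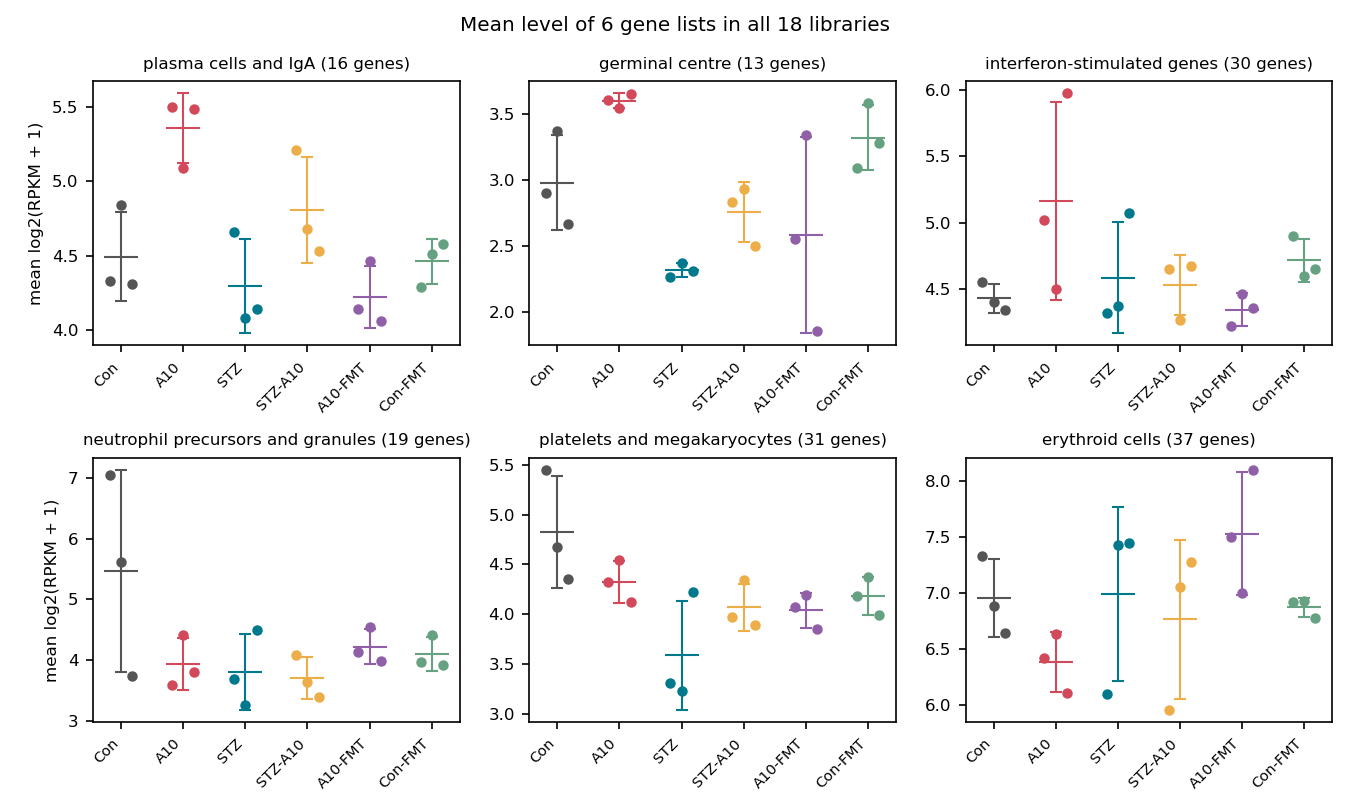
Mean log2(RPKM + 1) of 6 gene lists (vertical axis) in all 18 libraries by group; points are libraries, the bar is the group mean and the whiskers are the SD (n = 3). The 3 A10 libraries are above every Con library for plasma cell and germinal centre genes, while for neutrophil precursors Con 1 is highest and Con 3 is within the A10 range.

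Among other named genes lower in A10, the values were closer within groups. Timp3, an inhibitor of matrix proteases, was at 34.9, 32.55 and 39.87 RPKM in Con and at 21.96, 26.94 and 23.9 in A10 (adjusted p = 0.455). Slc2a3, the glucose transporter GLUT3, was at 33.2, 22.52 and 20.71 against 17.42, 17.66 and 15.39 (adjusted p = 0.455). Sord, of the polyol pathway, and Sqor, which oxidizes sulfide, had log2 fold changes of -0.51 and -0.49. Gucy1b1, a subunit of the nitric oxide receptor, was at 11.76, 9.87 and 10.86 against 6.94, 8.85 and 6.37 (adjusted p = 0.66). None of these 5 overlapped between the groups.

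Metabolic, stress and clock genes held few differences. For 27 genes of cholesterol and fatty acid synthesis the median was 0.14 and 2 had p under 0.05, Fasn and Idi1, both higher (3.57% of all genes). Fasn, the fatty acid synthase, was at 8.38, 11.65 and 11.59 in Con and at 15.02, 20.48 and 12.93 in A10 (adjusted p = 0.664). Of 29 NRF2 targets and antioxidant enzymes, Slc7a11, Prdx1 and Me1 were higher with p under 0.05 (3.57% of all genes) and Gsr was lower (1.51%). Nr1d1 (REV-ERBα), a clock repressor, was at 1.61, 1.99 and 2.13 against 5.68, 6.09 and 3.15 (adjusted p = 0.805). Of the 17 clock genes, 2 had p under 0.05 and were higher (3.57% of all genes). Among 33 proliferation genes the median was -0.13, and among 37 ribosomal protein genes it was 0.17. In neither list did a gene have p under 0.05 or pass the adjusted threshold in limma, although the groups did not overlap in 23 of the ribosomal protein genes, all higher in A10 (11.9% of all genes).

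A further list held 20 genes whose proteins the study stained or blotted in spleen, or that belong to apoptosis and iron handling. Of these, 3 had p under 0.05, 1 higher in A10 (3.57% of all genes) and 2 lower (1.51%). The study followed some of the 20 in animals of this experiment, so they are not independent evidence. Hp (haptoglobin), which binds free hemoglobin, was at 115.53, 48.86 and 12.31 RPKM in Con and at 9.18, 14.52 and 13.01 in A10 (adjusted p = 0.66). It followed the order of the neutrophil genes, with Con 1 highest and Con 3 within the A10 range. Hpx (hemopexin), which binds heme, was at 0.74, 14.58 and 3.59 against 1.36, 0.97 and 0.42 (adjusted p = 0.867). Spic was at 39.92, 36.47 and 48.66 against 46.44, 48.63 and 57.07 (adjusted p = 0.98). All 3 overlapped between the groups.

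The other red pulp and iron genes of that list had p over 0.05. Cd163, the receptor for haptoglobin and hemoglobin, was at 1.28, 1.42 and 1.28 in Con and at 0.93, 1.94 and 0.86 in A10. Hmox1, the heme oxygenase, was at 212.97, 168.7 and 262.55 against 215.89, 219.99 and 167.62. The log2 fold changes of the ferritin genes Fth1 and Ftl1, the iron exporter Slc40a1 and the transporter Slc11a1 were -0.08, -0.01, -0.18 and 0.18. Tfrc, the transferrin receptor of red cell precursors, was at 179.99, 119.89 and 104.19 against 78.3, 93.45 and 72.6 without overlap (adjusted p = 0.988). Hamp, the liver iron hormone, was at 0, 8.65 and 5.79 against 2.93, 1.75 and 0.29.

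The homing and survival genes likewise had p over 0.05. Ccl21a, the chemokine that guides T cells into the white pulp, was at 574.58, 1115.26 and 706.75 RPKM in Con and at 1227.41, 1164.13 and 1031.74 in A10 (log2 0.57 ± 0.406 SE, adjusted p = 0.988). Ccl19 was at 87.71, 220.04 and 116.52 against 191.9, 205.39 and 158.19, and their receptor Ccr7 was at 31.58, 42.58 and 68 against 54.11, 47.8 and 53.14. Con 2 was within the A10 range or above it for both chemokines. Mki67, a marker of dividing cells, was at -0.33 on the log2 scale, A10 minus Con (adjusted p = 0.988). For Trp53, Bax, Bcl2 and Bcl2l1 the log2 fold changes were 0.12, 0.18, 0.14 and -0.48. Bax did not overlap, at 67.53, 72.54 and 62.21 against 74.96, 72.94 and 80.67 (adjusted p = 0.988).

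The AOS difference was then set beside that in STZ animals, which shares no library with it. The split in the kidney transcripts divides STZ-A10 from STZ as it divides A10 from Con. AOS and the split therefore cannot be told apart in either comparison. No gene of 12488 had an interaction past the adjusted threshold in limma, and 347 (2.78%) had p under 0.05. Plasma cell genes had a median of 0.79 without STZ and 0.47 with it. In the STZ arm 7 of the 16 had p under 0.05 and were higher (1.21% of all genes were, and 1.63% lower), and the interaction had p under 0.05 in 1, Creld2 (adjusted p = 1). For germinal centre genes the medians were 0.59 and 0.42, with 0 interactions at p under 0.05 in limma and 0 past the adjusted threshold. Interferon genes had a median of -0.04 in the STZ arm, where 0 of the 30 were at p under 0.05 or past the adjusted threshold, and 10 had an interaction p under 0.05. Zbp1 for example had a log2 fold change of 1.14 without STZ and -0.02 with it (interaction -1.16, adjusted p = 1). In platelet genes the medians were -0.51 and 0.52, and 19 of the 31 had an interaction p under 0.05. Without Con 1 the platelet median for A10 minus Con was -0.16. For interferon genes it was 0.34 without A10 3. The interaction counts of the lists were not taken with a library left out. F5, a clotting factor carried by platelets, had log2 fold changes of -0.7 and 0.64 (interaction, adjusted p = 1). Neutrophil precursor genes had medians of -1.77 and -0.15, with 2 of 19 interactions at p under 0.05. Kap was the 1 gene of 12488 (0.00801%) past the adjusted threshold in the STZ arm as well, where it was lower in STZ-A10. In Con-FMT, which was given microbiota of control donors, Kap was at 0 in every library.

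**Figure D5:**
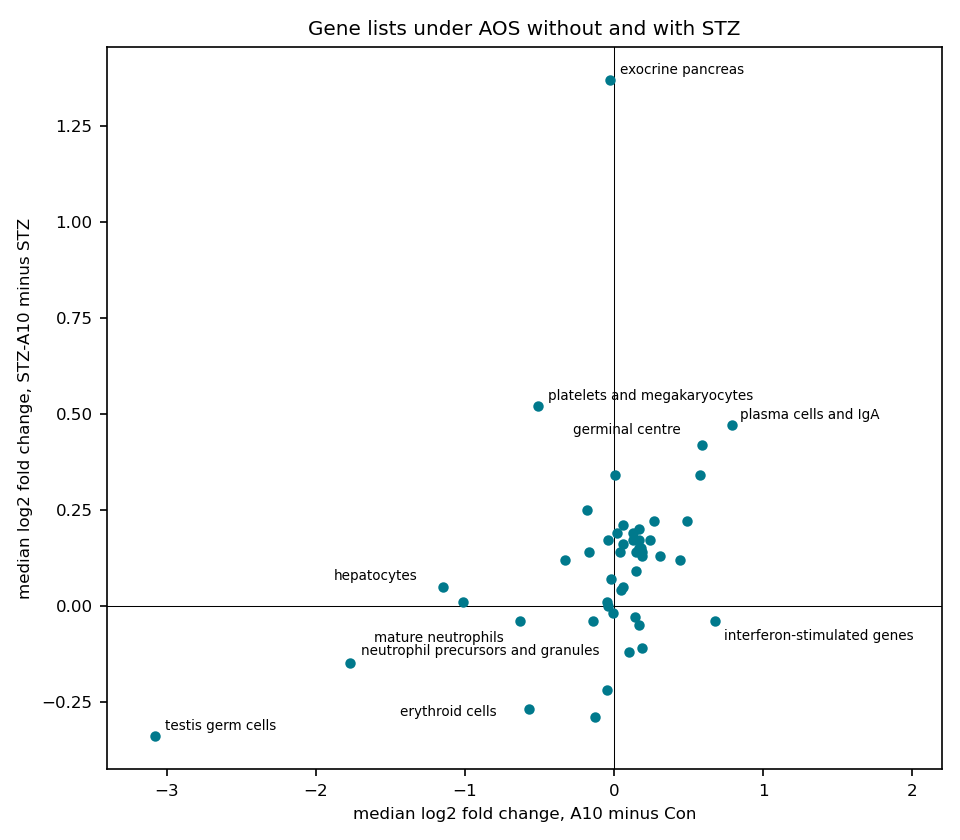
Median log2 fold change of each list of at least 4 genes for A10 minus Con (horizontal axis) and for STZ-A10 minus STZ (vertical axis); each point is a list. Plasma cell and germinal centre genes are above 0 on both axes, interferon genes on the horizontal axis only, and platelet genes have opposite signs.

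Transcripts of neighbouring or distant organs varied within and between the groups. Alb (albumin), of hepatocytes, was at 7.59, 104.59 and 97.95 RPKM in Con and at 25.22, 14.94 and 2.84 in A10 (adjusted p = 0.988). The 42 hepatocyte genes summed to 177 to 855 in Con and 235 to 395 in A10. Of 32 tested, 10 were lower (1.51% of all genes) and 1 was higher (3.57%) with p under 0.05. Con 1 had the lowest sum of the controls, and without it 29 of the 32 had p under 0.05 and were lower. Without Con 2, Con 3, A10 1, A10 2 or A10 3 the lower ones numbered 1, 3, 19, 6 and 1. Prss2 (trypsin), of the exocrine pancreas, was at 147.76, 23.77 and 0.52 against 3.1, 51.94 and 42.73. The 35 pancreas genes summed to 41.8 to 2810 in Con and 77.2 to 1090 in A10, with 1 tested gene, Bhlha15, at p under 0.05. Bhlha15 (MIST1), which plasma cells and pancreatic acinar cells both express, was at 1.77, 3.43 and 1.35 against 6.27, 3.77 and 6.58.

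Adipoq (adiponectin), of fat cells, was at 1.58, 9.81 and 9.13 against 7, 20.35 and 10.04. The 19 fat genes summed to 93.3 to 335 in Con and 210 to 530 in A10. Of 14 tested, 3 had p under 0.05 and were higher in A10 (3.57% of all genes), Thrsp, Lpl and Plin1 (0 without Con 1 or without A10 2). Star, of steroid-making cells, was at 5.85, 7.76 and 11 against 7.2, 8.44 and 8.42. Acta1, of skeletal muscle, was at 0.46 or less in all 6 libraries and was not tested. Of 10 kidney genes, 1 was at 0 in all 6 libraries and 5 were at 0 in all A10 libraries. The part of the organ transcripts in the differences above was not tested.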

How the data were processed

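Total RNA from frozen spleens was enriched for poly(A), and the libraries were sequenced on an Illumina HiSeq. The study's methods name SOAPaligner for mapping to reference genes, whereas the submitters' processing notes list Bowtie 0.12.2 and mm10. The authors deposited RPKM for 19326 lines, of which 6 with repeated names were left out. The table holds no counts. The steps of low values in 1299 genes with a single transcript length were best matched by 12100000 to 13000000 reads in the 6 libraries, a weak estimate, since other depths scored nearly as well. Under it an RPKM of 1 is 12 or 13 reads per kilobase.

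All 18 libraries were fitted in limma 3.58.1 (R 4.3.3, trend) on log2(RPKM + 1), with a coefficient per group, 12 residual degrees of freedom and the genes stated in the report. Fold changes on this scale understate the change of low genes. P-values are two-sided, and an exact permutation test of 3 against 3 could not go below 0.1. The study's own method, DEGseq, needs counts and was not used. Named genes were the 12 in each direction with no overlap and a mean RPKM of 5 in the higher group (those past the threshold, then by p), the 4 of lowest p per list, and the study's genes. Other genes were named with their values known. The comparison, its members and the 51 lists were chosen with earlier results of these data known. Positions come from GENCODE M21 (GRCm38) by symbol. Promoters come from RefSeq. Alternatives changed the scaling, filter, pseudocount, weights, block and libraries. Some genes are not reported here.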

Additional observations from a re-analysis of the deposited data

How the results depend on the processing

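Kap was past the adjusted threshold of 0.05 in limma in all 15 alternatives in which it was tested. Except with no filter it entered only through Con, so this says nothing about stability. The number of genes past it was 1 and became 2 after quantile normalization (Epcam added), 2 after median centring (Epcam added), 4 with no filter on low values, 0 with an RPKM of at least 1 in every one of the 6 libraries (Kap is then not tested) and 2 with a pseudocount of 0.1 (Tnp1 added). It was 4764 with limma's array weights, which were very uneven, from 0.0439 to 336, and gave 2029 interactions where the other fits gave 0. Leaving out a library gave 1 to 23 genes. These were 10 without Con 1, with liver genes such as Fga and Mup20, 11 without Con 2, 23 without Con 3, with neutrophil genes such as Mpo and Cd177, and 8 without A10 2, and the cause was not tested. The genes of p under 0.05 were higher in A10 in 70.3%, in 60.3% after median centring, in 41.6% with no filter and in 56% without Con 3. They numbered 634, and 1205 in the 6 libraries alone, 1471 with no filter and 315 without A10 3. The replicate numbers did not pair Con with A10, since same-numbered libraries correlated at -0.355, 0.095 and 0.016 in their deviations from the group means. Pairing was not examined in the STZ arm. By replicate number, the globin share there was 10.4%, 32.8% and 35.6% in STZ and 13.7%, 28.2% and 36.2% in STZ-A10. The main fit took no account of these numbers. The fit with the replicate number as a block gave 1 gene.

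The plasma cell list had 12 to 14 of its genes at p under 0.05 and higher in every alternative but the array weights, and a median of 0.69 to 0.96. Named genes close to 0 changed sign. With array weights the log2 fold changes were -0.24 (Ccl19), 0.25 (Hmox1), 0.05 (Ftl1) and -0.74 (Prss2). Star was at -0.03 after quantile normalization, -0.04 after median centring and -0.02 with globins removed. With a library left out, the values ran from -0.3 to 0.03 (Cd163), -0.06 to 0.48 (Ccr7), -0.04 to 0.24 (Bcl2), -0.24 to 0.07 (Hmox1), -0.03 to 0.03 (Ftl1), -0.06 to 0.9 (Isg15), -1.52 to 1.79 (Prss2) and -0.19 to 0.22 (Star). With 3 libraries a group, precision was limited most for genes under 1 RPKM, which rest on few reads.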
